A study of Mus musculus with 9 samples.

Results

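Line 175 and line 261 are cell lines grown from T-cell leukaemias of mice that express the transcription cofactor Lmo2 from a CD2 promoter, which drives it in T cells. They are 2 of the 9 arrays of the series, and they were set against each other because both express the receptor Notch1. Each line was measured on 1 array, so the differences between them have no replicate check and no test. Members are the probes whose normalized log2 intensity differed by more than 2 between the lines, among probes detected (detection p-value under 0.05) in at least 1 of them. All differences are line 175 minus line 261. Of 17354 such probes, 669 passed (3.86%), 281 of them higher in line 175 (1.62%) and 388 lower (2.24%). At the level of genes, with each gene read by its brightest eligible probe, 443 of 9325 passed (4.75%), 193 higher in line 175 (2.07%) and 250 lower (2.68%).

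The series compared such lines with thymus on the Illumina MouseWG-6 v2.0 bead array, and the question in its title is whether these leukaemias need Lmo2 for their maintenance. All samples carry the strain label C57BL/6. The groups are line 175, line 261 and a further leukaemia line numbered 3, with 1 array each, then thymus labelled Lmo2 transgenic (3 arrays) and wild-type thymus (3 arrays). The labels give no age, treatment, culture conditions or clonality, and do not state that the thymus arrays came from separate animals. The Lmo2 probe went against the group labels. It was not detected in line 175, line 261 or line 3, and it read 7.31, 6.57 and 5.70 on the labelled transgenic arrays, against 8.32, 8.37 and 8.58 on the wild-type arrays. It was not tested whether it also binds RNA made from the transgene, and this thymus group is called labelled transgenic below.

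NOTCH1 is a surface receptor that is cut when it binds a ligand on a neighbouring cell, and the released part enters the nucleus, joins the DNA-binding protein RBPJ and a Mastermind coactivator, and turns on target genes. In the thymus this signal commits progenitors to the T lineage, and it is often active in T-cell leukaemia. One of its direct targets, Nrarp, encodes a protein that feeds back to lower the signal. A second regulator met below is ATF4, a transcription factor made when cells lack amino acids. It turns on genes that take up and make amino acids, and, with DDIT3, genes of the stress response.

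Notch1 read 11.46 in line 175 and 11.32 in line 261, close to the 12.08 to 12.65 of labelled transgenic thymus and the 12.06 to 12.42 of wild-type thymus. In line 3 it was not detected. The CD3 chains of the T cell receptor complex were detected in both lines, with differences of -0.11 for Cd3d, -0.22 for Cd3e and 0.25 for Cd3g. None of 25 macrophage and granulocyte markers was detected in either line. The coreceptor Cd8b1 read 13.66 in line 175 and 14.51 in line 261, while both probes of Cd8a were undetected on every array, thymus included. Of 14 B cell markers 2 were detected in line 175 and 4 in line 261, and of 27 NK and cytotoxic genes 4 in each line. Both lines thus carried Notch1 and CD3 transcripts. They were set against each other because both express Notch1, so its detection here is not independent evidence.

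Most genes read alike in the lines. The difference was within 1 log2 unit for 7850 genes (84.2%), its median was 0.02, and it ranged from -8.51 to 8.40. Across genes the lines correlated at r = 0.911, against 0.905 for line 175 with line 3 and 0.903 for line 261 with line 3. Genes are not independent replicates, and these values describe the arrays only. The share of probes over 2 log2 units apart was 5.85% between lines 175 and 3 and 6.35% between lines 261 and 3. Between the wild-type arrays it was 0.651%, 0.736% and 0.0668%. Labelled transgenic array 2 stood apart from array 1 (4.59%) and from array 3 (4.76%) by as much as the lines from each other, while arrays 1 and 3 differed at 1.3%. Between 35.0% and 35.2% of probes were detected in the lines, against 38.2% to 40.8% on labelled transgenic and 39.4% to 43.0% on wild-type arrays.

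**Figure D1:**
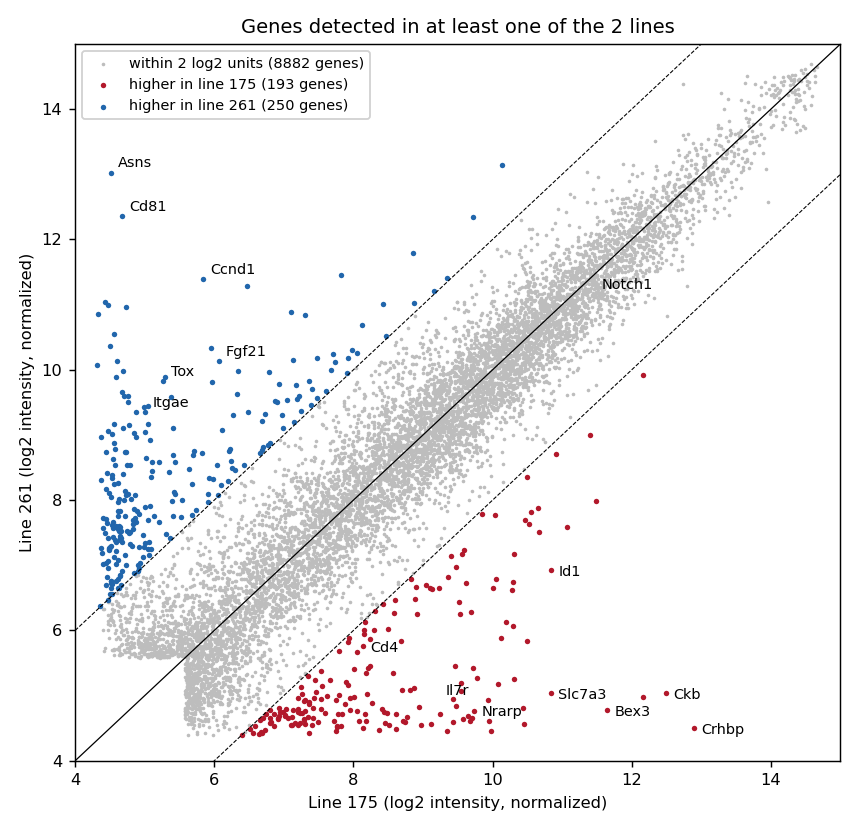
Normalized log2 intensity of the 9325 genes detected in at least 1 of the lines, in line 175 (x axis) and line 261 (y axis). Dashed lines mark a difference of 2 log2 units. The 193 red genes are higher in line 175 and the 250 blue genes lower in line 175, and many of both lie along an axis near 5, where probes are not detected.

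Many differences ran from a clear signal to none. Of the 193 genes higher in line 175, 137 (71.0%) were not detected in line 261, and of the 250 lower ones 174 (69.6%) were not detected in line 175. An undetected probe has only an upper bound, so its fold is given as "at least", computed against the higher of its own value and the lowest value detected on that array. With these bounds 130 of the 193 and 177 of the 250 reached at least 4-fold. Differences over 4 log2 units were seen for 38 genes in favour of line 175 and 42 in favour of line 261. Among 151 member genes with more than 1 eligible probe, another probe also passed in the same direction for 80 and in the opposite direction for 0. A further 33 genes passed only by a probe other than their brightest. Just inside the threshold lay Fxyd5 at 2.004 and Abhd14b at 2.01, and on the lower side Slc22a18 at -2.003 and B3galt4 at -2.007. Just outside it lay Tmsb4x at 1.998 and 5031439G07Rik at 1.99, and Cmpk2 and Sft2d2 at -1.9997 and -1.99.

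The promoters of 3 genes are shown here because the amino acid response held the widest gap of all, that of Asns. They belong to Asns and Fgf21, both lower in line 175, and to Slc7a11, a cystine carrier of the same list that differed by 0.84. The sequences are RefSeq's on GRCm38.p6, from 250 bases before to 50 after the annotated start. They lie at chr6:7693160-7693459 (Asns), chr7:45615441-45615740 (Fgf21) and chr3:50443564-50443863 (Slc7a11), all on the minus strand. Capitals mark TGATGNAA on either strand, the letters of the element that ATF4 binds together with C/EBP proteins.
Asns: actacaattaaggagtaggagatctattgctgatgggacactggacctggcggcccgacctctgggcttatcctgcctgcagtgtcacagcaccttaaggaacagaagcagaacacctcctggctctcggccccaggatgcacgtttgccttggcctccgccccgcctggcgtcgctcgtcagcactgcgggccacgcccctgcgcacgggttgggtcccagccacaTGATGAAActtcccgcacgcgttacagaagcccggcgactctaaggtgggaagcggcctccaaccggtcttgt
Fgf21: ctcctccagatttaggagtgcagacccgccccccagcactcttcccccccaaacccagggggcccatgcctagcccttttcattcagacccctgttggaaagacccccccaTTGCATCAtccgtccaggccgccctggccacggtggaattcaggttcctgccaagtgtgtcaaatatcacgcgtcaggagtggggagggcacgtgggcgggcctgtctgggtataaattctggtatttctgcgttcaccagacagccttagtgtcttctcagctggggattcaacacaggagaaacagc
Slc7a11: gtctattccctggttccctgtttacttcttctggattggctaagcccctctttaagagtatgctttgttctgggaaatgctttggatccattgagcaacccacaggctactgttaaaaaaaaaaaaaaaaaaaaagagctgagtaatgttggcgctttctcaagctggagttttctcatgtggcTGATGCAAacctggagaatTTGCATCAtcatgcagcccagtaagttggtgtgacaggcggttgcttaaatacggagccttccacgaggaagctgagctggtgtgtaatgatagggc
Letters matching TGATGNAA stood in 3.97% of 32851 RefSeq promoters of this length and in 2.63% of the 7635 tested genes with a promoter entry. They stood in 6 of the 19 amino acid response genes with an entry, namely Trib3, Chac1, Asns, Slc7a11, Nupr1 and Fgf21. Of these 6, Asns and Fgf21 were over 2 units apart between the lines and the other 4 were not. A match describes these letters and is not evidence of a binding site.

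The widest gap of all was in Asns, the asparagine synthetase that makes asparagine from aspartate and glutamine. Asns was not detected in line 175 (4.51) and read 13.03 in line 261, at least 174-fold lower in line 175. In line 3 it read 12.21, on the labelled transgenic arrays 5.18, 6.27 and 5.53, and on the wild-type arrays 6.35, 6.29 and 6.69. Line 261 and line 3 were thus far above all 6 thymus arrays. Asns was detected on all 3 wild-type but only 2 of the 3 labelled transgenic arrays. Its other 2 eligible probes gave -7.09 and -4.19.

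Fgf21, a hormone of the fibroblast growth factor family made under nutrient stress, was detected in both lines, at 6.07 in line 175 and 10.13 in line 261, which is 16.8-fold lower in line 175. It was undetected in line 3 (4.58) and on all 6 thymus arrays. Ddit3, a stress transcription factor also called CHOP, read 8.87 in line 175 and 11.02 in line 261 (4.45-fold lower). Its level was 8.67 in line 3, 8.47 ± 0.57 on labelled transgenic and 8.04 ± 0.21 on wild-type arrays (SD, n = 3 each), so line 261 was the high one. Cebpb, a C/EBP family transcription factor, read 6.68 in line 175 and 8.77 in line 261 (4.25-fold lower), against 9.39 ± 0.49 on labelled transgenic and 9.35 ± 0.19 on wild-type arrays. Here line 175 was the low one.

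Slc7a3, a carrier of arginine and other cationic amino acids, went the other way. It read 10.84 in line 175 and was not detected in line 261 (5.04), a difference of at least 38.3-fold. Line 3 was high as well (10.19), and the 6 thymus arrays lay between 4.52 and 6.07. The second Slc7a3 probe was close to background and gave 0.43.

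Across the amino acid response list, 1 of 21 genes detected in at least 1 line was higher in line 175 and 4 were lower, with a median of -0.42. Over all genes 2.07% were higher and 2.68% lower, with a median of 0.02. The other 16 were within 2 units. Atf4 itself read 12.09 in line 175 and 12.47 in line 261. The pseudokinase Trib3, which restrains ATF4, read 9.51 in line 175 and 10.93 in line 261. For the glutathione-degrading enzyme Chac1 the levels were 10.49 in line 175 and 11.36 in line 261. In wild-type thymus these last genes averaged 4.83 ± 0.05 and 4.80 ± 0.32 (SD, n = 3), so both lines lay far above thymus for them. Genes of serine synthesis and one-carbon metabolism, Phgdh, Psat1, Shmt2 and Mthfd2, differed by between -0.48 and 0.20.

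**Figure D2:**
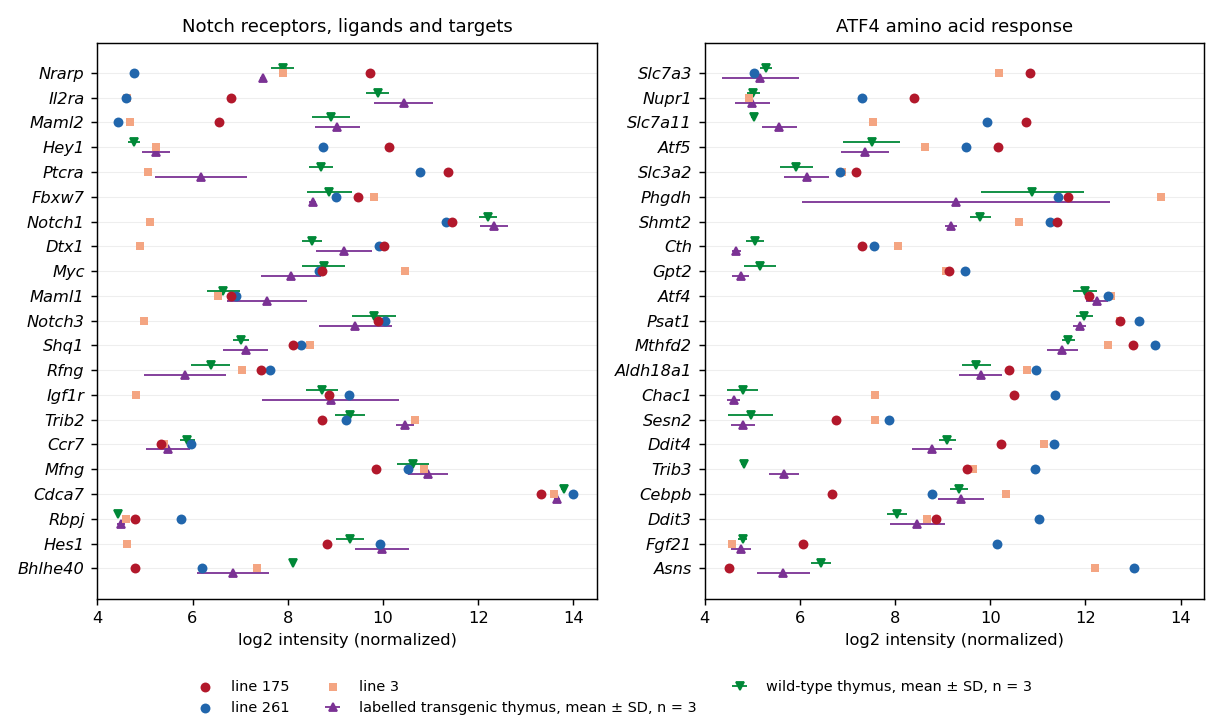
Normalized log2 intensity (x axis) of the list genes detected in at least 1 of lines 175 and 261, ordered by the difference between the lines. Circles are lines 175 and 261 and squares line 3 (1 array each), and triangles are thymus means with SD bars (n = 3 each). Nrarp, Slc7a3, Fgf21 and Asns have their 2 circles farthest apart, while Notch1, Notch3, Dtx1 and Atf4 have them close together.

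Among Notch genes Nrarp had by far the widest gap, and most of the others were within 2 units. Nrarp read 9.73 in line 175 and was not detected in line 261 (4.77), at least 17.7-fold higher in line 175. It was 7.90 in line 3, 7.45, 7.44 and 7.53 on the labelled transgenic arrays, and 8.06, 8.01 and 7.60 on the wild-type arrays. Line 175 was thus above every thymus array and line 261 below every one. The array has 1 probe for Nrarp.

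The other Notch genes that passed were Il2ra and Maml2, both near background in line 175 and undetected in line 261. Il2ra, the alpha chain of the interleukin 2 receptor, read 6.81 in line 175 and 4.59 in line 261, at least 2.35-fold higher in line 175. It lay at 9.71 to 10.16 on wild-type arrays, so both lines were far below thymus. Its second probe was undetected in both lines. Maml2, a Mastermind coactivator, read 6.55 in line 175 and 4.42 in line 261 (at least 1.95-fold), against 8.45 to 9.20 on wild-type arrays.

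In all, 3 of 21 Notch genes were higher in line 175 and 0 lower, with a median of -0.14, against 2.07% and 2.68% of all genes and a median of 0.02. Other known targets of the pathway were within 2 units. Hes1, a repressor of the Hairy family, read 8.82 in line 175 and 9.94 in line 261. The related Hey1 read 10.13 in line 175 and 8.74 in line 261, and 4.77 ± 0.13 in wild-type thymus (SD, n = 3). The ubiquitin ligase gene Dtx1 read 10.02 in line 175 and 9.91 in line 261, and Ptcra, the pre-T cell receptor alpha chain, 11.38 in line 175 and 10.79 in line 261. Notch3 read 9.89 in line 175 and 10.03 in line 261. Myc, a growth regulator and Notch target in T-cell leukaemia, read 8.71 in line 175 and 8.66 in line 261. In line 3, Notch3, Hes1, Hey1, Dtx1 and Ptcra all lay between 4.62 and 5.23. The letters GTGGGAA, the core that RBPJ reads, stood in the promoter window of 1 of 15 list genes with an entry (Cdca7). Over all promoters the share was 6.38%. Hes1, Hey1 and Myc had no entry and were not searched.

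Of 17 coreceptor and double-positive thymocyte genes, Cd4 was higher in line 175 and Tox and Cd69 were lower (list median -0.25), where 2.07% of all genes were higher and 2.68% lower. Cd4, the coreceptor for MHC class II, read 8.14 in line 175 and 5.76 in line 261, 5.21-fold higher in line 175. It was 5.58 in line 3, 5.07, 5.56 and 5.14 on the labelled transgenic arrays, and 5.71, 4.99 and 4.92 on the wild-type arrays. Line 175 stood above all 8 other arrays. Line 261 was near background, with 5.58 the lowest value detected on its array. Thymus was near background too, and Cd4 was detected there on 1 wild-type and 1 labelled transgenic array. How well this probe reads Cd4 RNA in thymus was not tested, so thymus is a weak reference for it. A second Cd4 probe was undetected in both lines and gave -0.40. In bulk RNA, fewer cells with a transcript and less of it per cell cannot be told apart.

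Tox, a nuclear factor needed for the CD4 lineage, was undetected in line 175 (5.27) and read 9.82 in line 261, at least 18.9-fold lower in line 175. It was 11.25 in line 3 and 11.27 to 12.28 over the 6 thymus arrays, so line 175 alone lacked a signal. Cd69, an early activation antigen that holds cells in tissue, was undetected in line 175 (4.43) and read 7.49 in line 261 (at least 3.76-fold). Both lines were below the 9.54 to 9.65 of wild-type thymus. The second, dimmer Cd69 probe gave 0.11. The recombinase genes Rag1 and Rag2 and the terminal transferase Dntt differed by -0.25, -0.33 and 0.26. The DNA organizer Satb1 differed by -0.05.

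Cytokine receptors held 3 of the 12 list genes that were higher in line 175. Il7r, the interleukin 7 receptor that sustains immature T cells, read 9.48 in line 175 and was undetected in line 261 (4.84), at least 14.9-fold higher in line 175. It was undetected in line 3 as well (5.23), and lay at 11.13 to 12.09 on labelled transgenic and 11.35 to 11.45 on wild-type arrays. Line 175 was therefore nearer to thymus than line 261. Its other eligible probes gave 1.87 and 1.93, and another pair of Il7r probes, undetected in both lines, gave -0.08 and 0.33. Il15ra, the interleukin 15 receptor alpha chain, read 7.26 in line 175 and was undetected in line 261 (4.74), at least 3.19-fold higher in line 175, around the 5.79 to 6.07 of wild-type thymus. The kinase Jak1, which signals from these receptors, was undetected in line 175 (5.05) and read 7.25 in line 261 (at least 3.18-fold lower), with 8.52 to 9.10 on wild-type arrays. With these, 3 of 28 genes were higher and 1 lower, with a median of -0.23, beside 2.07% and 2.68% of all genes.

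Among T cell receptor chains 0 of 6 genes were higher and 1 was lower in line 175, among T cell receptor signalling genes 1 of 22 was higher and 2 lower, and among homing and adhesion genes 0 of 18 higher and 1 lower. With 2.07% higher and 2.68% lower over all genes, counts this small show nothing particular to these lists. Trbv13-1, a variable segment of the T cell receptor beta chain, was undetected in line 175 (4.72) and read 8.74 in line 261, at least 8.95-fold lower. It was undetected in line 3, 5.74 to 7.70 on labelled transgenic and 11.14 to 11.36 on wild-type arrays. Variable segments resemble each other, so this probe may read related segments. Itgae, the integrin that binds epithelial cadherin, was undetected in line 175 (5.01) and read 9.35 in line 261 (at least 13.7-fold lower), with 10.59 to 10.62 in wild-type thymus. Of its 5 other eligible probes 3 passed in the same direction, and the 5 ranged from -3.74 to -0.98. The adhesion receptor Cd2 read 10.50 in line 175 and 8.35 in line 261 (4.43-fold higher in line 175), against 10.34 to 10.50 in wild-type thymus. The costimulatory receptor Icos read 6.05 in line 175 and 8.07 in line 261 (4.06-fold lower). Gimap6, an immune GTPase, was undetected in line 175 (4.86) and read 7.73 in line 261 (at least 4.43-fold lower), both far below the 10.40 to 10.74 of wild-type thymus.

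Interferon response genes that passed were all lower in line 175, 3 of 17, with a list median of -0.44, where all genes had 2.68% lower, 2.07% higher and a median of 0.02. Rsad2, an antiviral enzyme also called viperin, was undetected in line 175 (4.46) and read 8.42 in line 261, at least 7.14-fold lower. It was 8.46 in line 3, 6.92 to 10.09 on labelled transgenic and 6.80 to 7.72 on wild-type arrays. The guanylate-binding protein Gbp2 was undetected in line 175 (4.56) and read 7.59 in line 261 (at least 4.03-fold), and Usp18, which removes ISG15 from proteins, read 5.92 in line 175 and 8.09 in line 261 (4.51-fold). The wild-type arrays read 9.89 to 10.24 for Gbp2 and 8.76 to 9.15 for Usp18, above both lines. Isg15 and Ifit2 differed by -0.01 and 0.14. Of the MHC genes, H2-M3, a class I molecule that presents formylated peptides, read 5.72 in line 175 and 8.76 in line 261 (8.25-fold lower), and H2-Oa, a class II loading regulator, read 7.68 in line 175, a difference of -2.32 from line 261 (4.99-fold lower). Wild-type thymus lay at 9.35 to 9.55 for H2-M3 and at 9.57 to 9.88 for H2-Oa.

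In cell division and survival, 1 gene stood out. Ccnd1, the D-type cyclin that starts the passage from G1 into S phase with CDK4 and CDK6, was detected in both lines, at 5.84 in line 175 and 11.39 in line 261, 46.9-fold lower in line 175. It was 5.70 in line 3, 7.73, 6.56 and 6.61 on the labelled transgenic arrays, and 7.997, 8.09 and 8.36 on the wild-type arrays. Line 261 was above every thymus array and line 175 below every one, and the other probes gave -6.23 and -4.23. It was the only 1 of 34 cell cycle and DNA replication genes to pass (list median 0.13), against 4.75% of all genes.

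Bik, a death-promoting member of the BCL2 family, read 7.83 in line 175 and was undetected in line 261 (4.71), at least 4.75-fold higher in line 175. Bbc3, the p53-induced killer PUMA, read 7.39 in line 175 and 9.46 in line 261 (4.17-fold lower), but its other probes gave -1.01 and 0.09. No gene passed among 21 tumour suppressors of T cell leukaemia, 23 MYC and ribosome biogenesis genes (median 0.41), 18 immediate early and heat shock genes, or 10 partners of the LMO2 complex. Over these 10 the difference ran from -0.66 to 0.40.

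Id1, an inhibitor of the helix-loop-helix E proteins that guide early lymphocytes, read 10.84 in line 175 and 6.92 in line 261, 15.1-fold higher in line 175. It was 6.48 in line 3, 5.16 to 6.12 on labelled transgenic and 4.68 to 5.005 on wild-type arrays. Both lines were above wild-type thymus, and line 175 by far. Its relatives Id2 and Id3 differed by -1.70 and 0.57. Id1 was the only 1 of 18 T lineage commitment and progenitor factors over 2 units, against 4.75% of all genes. Among metabolic genes, the pyruvate dehydrogenase kinase Pdk3 read 9.52 in line 175 and 6.44 in line 261 (8.49-fold higher in line 175), with wild-type thymus at 9.37 to 9.57, so line 261 was the low one. The desaturase Scd1 read 10.03 in line 175 and 7.78 in line 261 (4.77-fold higher), and the cholesterol exporter Abcg1 was undetected in line 175 and read 6.76 in line 261 (at least 2.27-fold lower). Of 8 fibroblast and endothelium markers 0 were higher and 2 lower in line 175 (2.07% and 2.68% over all genes). The small proteoglycan Dcn read 7.36 in line 175 and 9.83 in line 261, against 4.38 to 5.26 in wild-type thymus. Vim, an intermediate filament gene, was undetected in line 175 and read 6.73 in line 261, against 10.08 to 10.63 in wild-type thymus. The collagen genes Col1a1, Col1a2 and Col3a1 were not detected in either line.

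**Figure D3:**
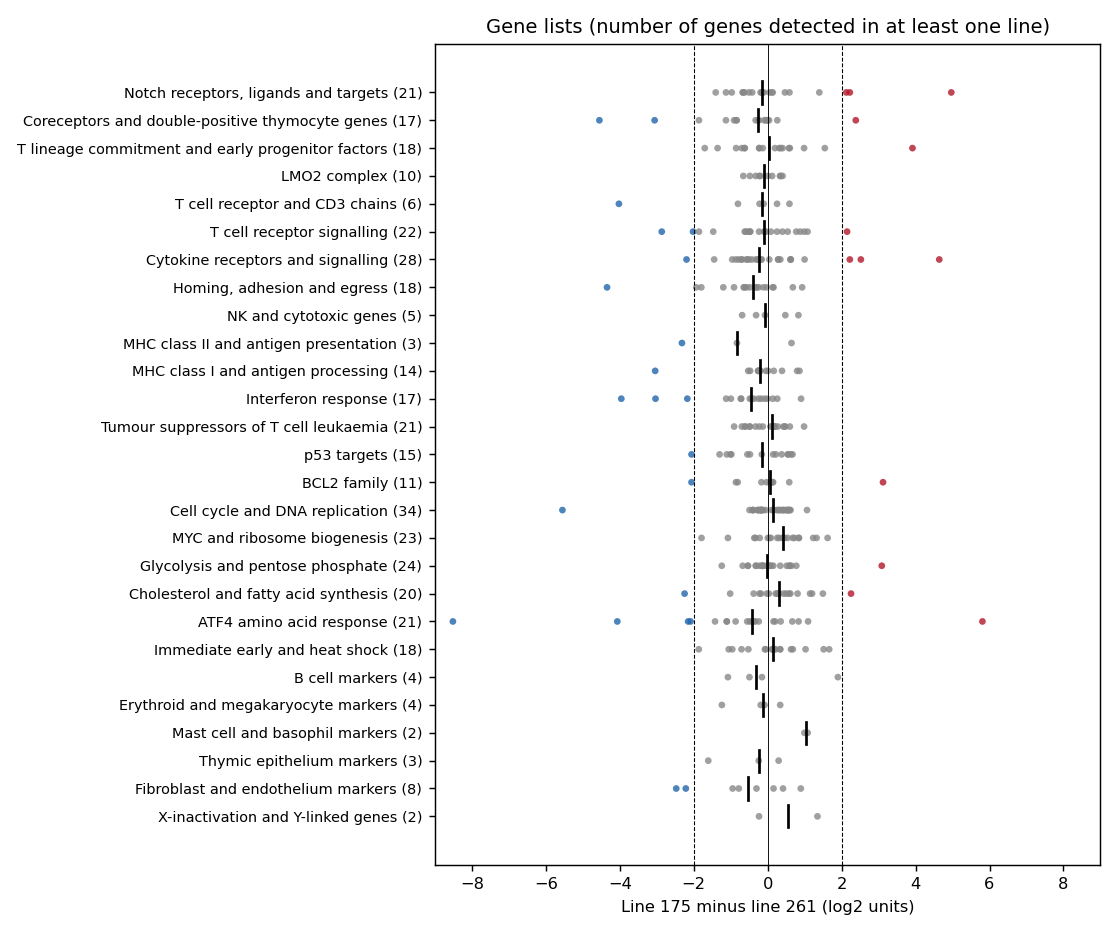
Difference between line 175 and line 261 in log2 units (x axis) for each gene of 27 lists with at least 1 gene detected in either line, with the number of such genes in brackets. Red points are over 2 units higher in line 175, blue points over 2 units lower, and black bars are list medians. Most points of each list lie between the dashed lines at 2 and -2, with Asns and Ccnd1 farthest to the left and Slc7a3, Nrarp and Il7r farthest to the right.

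Over all 28 lists, 367 distinct genes were detected in at least 1 line, and 12 were higher and 21 lower in line 175, against 193 and 250 of 9325 genes in all (2.07% and 2.68%). The widest gaps lay mostly outside the lists. Crhbp, which encodes the binding protein of corticotropin-releasing hormone, read 12.89 in line 175 and was undetected in line 261 (4.50), at least 159-fold higher in line 175. It was 4.90 in line 3, 4.67, 4.56 and 5.32 on the labelled transgenic arrays, and 4.48, 5.11 and 4.59 on the wild-type arrays. Line 175 thus stood alone among 9 arrays.

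Several other genes had the same shape, with line 175 well above all other arrays. The Wnt receptor Fzd10 read 9.98 in line 175 and was undetected in line 261 (4.46), at least 21.0-fold higher in line 175, and its other probes gave 2.89 and 3.52. Nkd1, an inhibitor in the Wnt pathway that binds Dishevelled, read 9.67 in line 175 and was undetected in line 261 (4.62), at least 17.0-fold higher. The second Nkd1 probe gave 1.51. Idi2, an isomerase of isoprenoid synthesis, read 10.31 in line 175 (at least 26.5-fold higher). The leucine-rich repeat protein gene Islr2 read 9.64 (at least 16.7-fold higher). Both were undetected in line 261. Gnb4, a G protein beta subunit, read 9.70 in line 175 and was undetected in line 261 (4.66), at least 17.4-fold higher in line 175. Unlike the others it was detected on all thymus arrays, at 7.88 to 8.21 on labelled transgenic and 5.86 to 6.26 on wild-type arrays. Fzd10 was detected on all 3 labelled transgenic arrays (6.45, 7.25 and 6.54) but on no wild-type array. Islr2 was detected in line 3 (6.49) and on 2 labelled transgenic arrays, and Idi2 on 1 labelled transgenic array.

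A second shape was a gene expressed in thymus that gave no signal in line 261. Bex3, which encodes an adaptor of the neurotrophin receptor p75, read 11.65 in line 175, 11.96 in line 3 and 11.28 to 11.69 in wild-type thymus, and was undetected in line 261 (4.78), at least 66.9-fold higher in line 175. The zinc finger gene Zfp362 (at least 29.1-fold), the ubiquitin-binding protein gene Cuedc2 (at least 29.0-fold) and the membrane protein gene Tmem108 (at least 20.6-fold) followed it. These 3 read 10.45, 10.44 and 9.95 in line 175 and were detected in line 3 and on all 6 thymus arrays.

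Ckb, the brain-type creatine kinase, combined both shapes. It read 12.49 in line 175 and was undetected in line 261 (5.03), at least 120-fold higher in line 175, with 9.92 in line 3, 8.10 to 8.68 on labelled transgenic and 9.45 to 9.76 on wild-type arrays. Sapcd1 read 12.17 in line 175 and was undetected in line 261 (4.97), at least 95.9-fold higher, with 9.07 to 9.43 in wild-type thymus. Gcat, an enzyme of threonine breakdown, read 9.93 in line 175 and was undetected in line 261 (4.94), at least 20.4-fold higher, with 10.80 in line 3 and 7.49 to 7.90 in wild-type thymus.

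On the lower side, the largest gap after Asns was in Cd81, a tetraspanin of the cell surface. Cd81 was undetected in line 175 (4.67) and read 12.36 in line 261, at least 110-fold lower in line 175. It was 12.08 in line 3, 11.57, 11.83 and 12.34 on the labelled transgenic arrays, and 11.16, 11.41 and 11.17 on the wild-type arrays. Line 175 alone among 9 arrays gave no signal. Pkp4 and Ctnna1 had the same pattern. Pkp4, an armadillo-repeat protein of cell junctions, was undetected in line 175 (4.47) and read 10.99 in line 261 (at least 42.5-fold), with 10.05 to 11.02 over the 6 thymus arrays. Ctnna1, the alpha-catenin that links cadherins to actin, was undetected in line 175 (4.74) and read 10.97 in line 261 (at least 41.8-fold), with 10.26 to 11.65 over thymus. For Pkp4 the other eligible probes gave -3.06 and -2.17, and a further pair, undetected in both lines, gave -0.11 and -0.22.

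Rtl8a, a gene derived from a retrotransposon (at least 31.3-fold lower), and the RNA- and DNA-binding protein gene Rbms1 (at least 23.6-fold lower) were likewise undetected in line 175 alone. In line 261 they read 10.55 and 10.14. Mgmt, the enzyme that removes alkyl groups from guanine in DNA, was undetected in line 175 (4.50) and read 10.36 in line 261, at least 27.6-fold lower, with 7.16 in line 3, 6.54 to 8.97 on labelled transgenic and 8.72 to 8.86 on wild-type arrays. Prnp, which encodes the prion protein, was undetected in line 175 (4.31) and read 10.08 in line 261 (at least 22.6-fold lower), against 9.01 to 9.16 in wild-type thymus.

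For Maged1, Afdn, Card10 and Rap1gap2 line 261 was above all 6 thymus arrays and line 175 was undetected. Afdn was detected on only 2 of the 3 labelled transgenic arrays. Maged1, an adaptor of the MAGE family, was undetected in line 175 (4.43) and read 11.04 in line 261 (at least 43.9-fold lower in line 175), with 8.84 to 8.90 on wild-type arrays. Afdn, the junction protein afadin, was undetected in line 175 (4.33) and read 10.86 in line 261 (at least 38.8-fold), with 8.05 to 8.48 on wild-type arrays. Card10, a scaffold of NF-kappaB signalling, and Rap1gap2, which switches off the GTPase Rap1, were at least 16.9-fold and at least 16.2-fold lower in line 175. Ly6k, a lipid-anchored surface protein, was at least 19.8-fold lower in line 175, but it also varied within thymus, reading 4.60, 10.42 and 4.65 on the labelled transgenic arrays, so line 261 (9.89) was not above all of them. Smoc1, a secreted calcium-binding protein, was undetected in line 175 (4.69) and in line 3, and read 9.98 in line 261 (at least 21.1-fold lower). On the thymus arrays Smoc1 lay between 4.41 and 5.49, so line 175 was at the thymus level and line 261 was the high one. Its second probe gave -1.77.

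**Figure D4:**
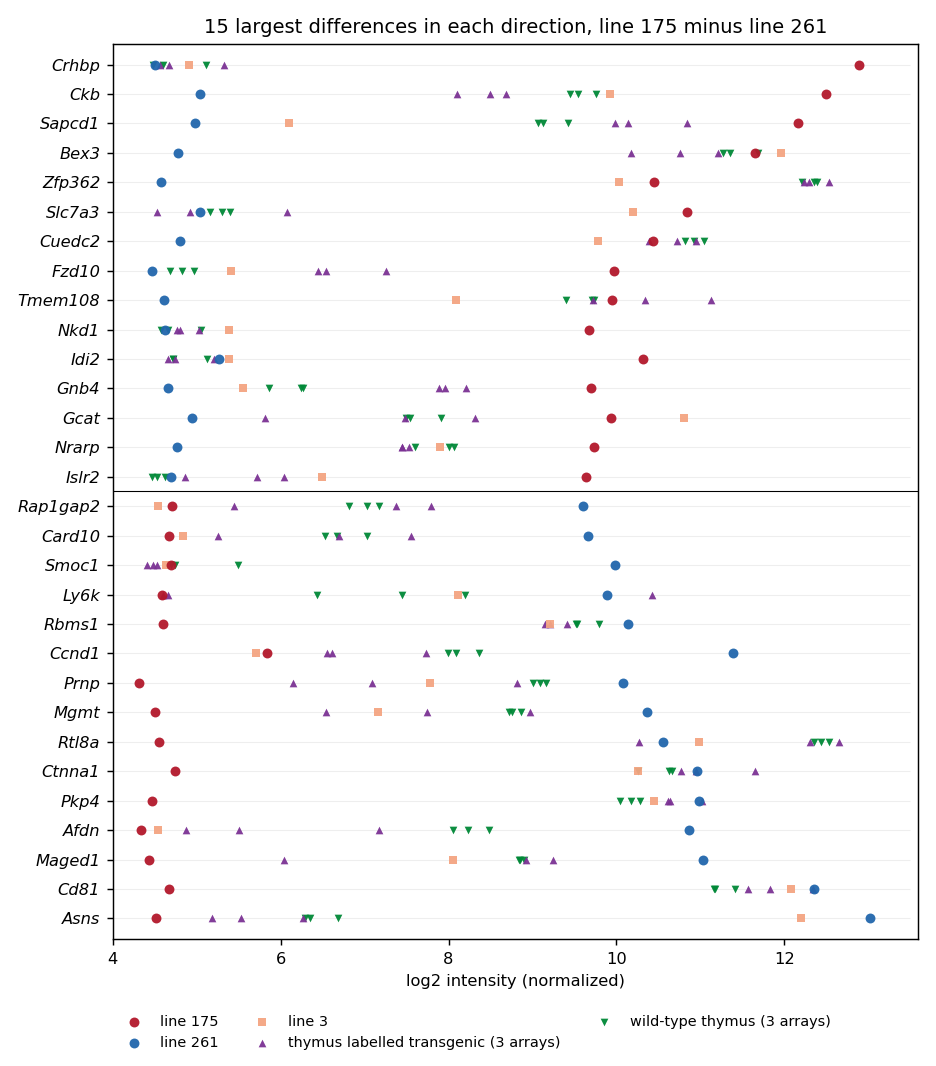
Normalized log2 intensity (x axis) on all 9 arrays for the 15 genes with the largest difference in each direction (above the line, higher in line 175; below it, lower in line 175). Each point is 1 array. Ccnd1 is the only 1 of the 30 genes detected in both lines; for the others the lower line lies at background, between 4.31 and 5.26.

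Set against wild-type thymus, the differing genes divided by which line departed. A line was counted as departing where it lay over 2 log2 units from the mean of the 3 wild-type arrays. Of the 193 genes higher in line 175, line 175 alone was above thymus for 70 and line 261 alone below it for 64. Of the 250 genes lower in line 175, line 175 alone was below thymus for 91 and line 261 alone above it for 69. Of the higher and the lower genes, the lines departed in opposite directions for 3 and 7, both lay above thymus for 4 and 4, both below it for 10 and 15, and neither departed for 42 and 64. With labelled transgenic thymus in place of wild type, the 4 main counts were 67, 64, 103 and 79. All 443 differences exceeded the range of the 3 wild-type arrays, and 425 also exceeded that of the labelled transgenic arrays. The 443 were chosen for their size, and these counts describe them only.

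**Figure D5:**
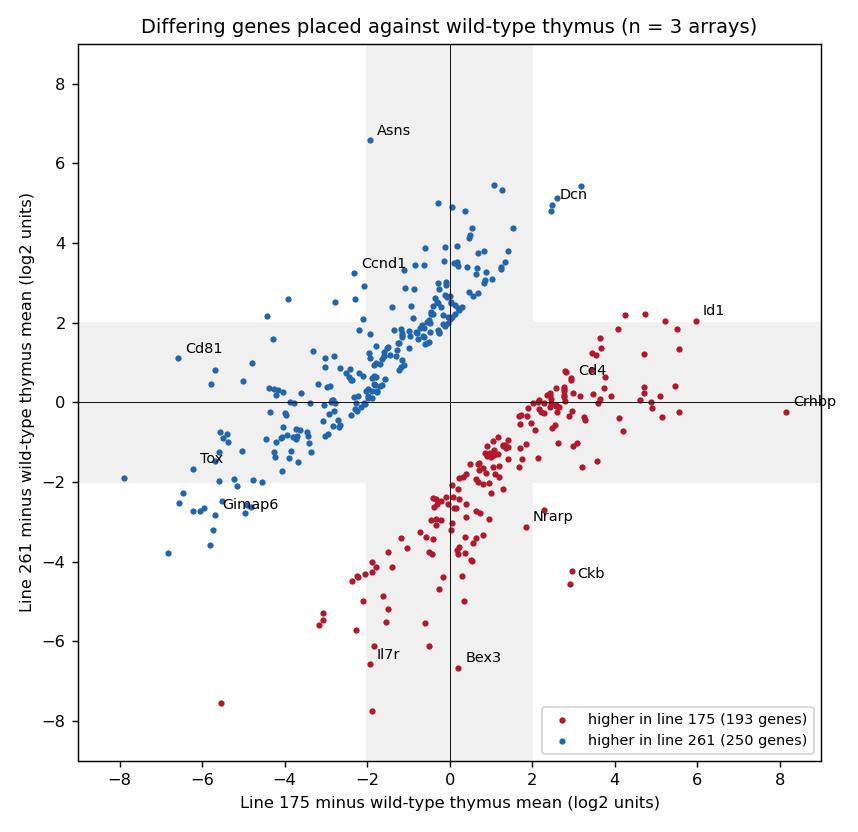
The 443 differing genes by their distance from the wild-type thymus mean (n = 3 arrays) in line 175 (x axis) and line 261 (y axis), in log2 units. Grey bands mark distances within 2. Crhbp and Asns lie at the ends of the horizontal and vertical band, where 1 line departed, and Ckb in the lower right, where the lines departed in opposite directions.

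Line 3 sided with neither line. Of the genes higher in line 175 it was closer to line 175 for 88 and closer to line 261 for 105, and of the genes lower in line 175 it was closer to line 175 for 129 and closer to line 261 for 121. On the thymus arrays 271 of the 443 genes were detected 6 times out of 6, and 46 were detected on none. The counts depend on how background is treated. Quantile normalization without background correction left 48 genes higher and 47 lower in line 175, and median scaling without it 52 and 81. All 30 genes with the largest differences stayed over 2 units apart under 5 other settings, with a smallest difference of 2.44, while 5 of the other 29 list genes named (Il7r, Id1, Tox, Itgae and Fgf21) did. For Cd4 the difference was 1.06 to 2.38 and for Nrarp 2.53 to 4.96 over these settings.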

How the data were processed

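Total RNA (about 300 ng per array, per the labels' protocols) of the 9 samples was read on Illumina MouseWG-6 v2.0 bead arrays with 45281 probes. The authors deposited probe intensities with a detection p-value per probe and array, per the file headers, and a second table of normalized log2 intensities. Per the submitters' processing notes, BeadStudio and limma were used, with no versions or settings. The deposited log2 values equal the series' own value table (largest difference 0), and they were used as they stand. The deposited detection p-values are the same in both tables. Slide and scan are not given in these sources, so no batch was examined.

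Samples were grouped by their titles. Probes with a detection p-value under 0.05 in line 175 or line 261 were kept, and a difference above 2 log2 units made a probe a member. By the platform annotation, 34885 probes name 1 gene, 18 name several and 10378 name none. A gene was read by its kept probe with the highest mean over the 9 arrays. Among the member probes, 84 had no symbol and 1 several, and these are counted but not named. A line has 1 array, so no test was run. Precision is limited by that number, and values near 5 are at background.

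The members and all gene lists were chosen with earlier results of these data known. Genes are named by a rule: the 15 largest differences in each direction without clone names, list members over 2 units, and Notch1, Nrarp, Cd4, Cd8a, Cd8b1 and Lmo2. Genes at the threshold, list members within 2 units and neighbouring genes were chosen after their values were seen. Promoters came from RefSeq, and 340 of the 443 member genes (76.7%) matched an entry, too few to compare promoter properties over members. The selection was tried on simulated data with differences planted only in probes well above background. It thus says nothing about members that were undetected in the lower line. Intensities were renormalized as alternatives with neqc and other methods in limma 3.58.1 under R 4.3.3, and the rest was computed in Python 3.11.15 with pandas 2.3.3 and numpy 2.4.6.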

Additional observations from a re-analysis of the deposited data

Results flagged for a closer look

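For 27 of the named genes the lines lay on opposite sides of all 3 wild-type thymus arrays. Among the 443 differing genes 199 had this pattern, 82 higher and 117 lower in line 175. The 443 were chosen for a gap over 2 units, and all these gaps exceeded the wild-type range. The pattern is thus partly built in by the choice, and it was not counted over all 9325 genes. Of the 193 higher and 250 lower genes, 137 and 174 were undetected in the lower line, so that side often rests on background values. With 1 array per line the difference was not tested. Line 175 was above and line 261 below wild-type thymus for Ckb (7.46 log2 units apart), Sapcd1 (7.19), Slc7a3 (5.81), Fzd10 (5.51) and Tmem108 (5.33). The same held for Gnb4 (5.05), Gcat (4.99), Nrarp (4.96), Bik (3.12), Il15ra (2.52) and Scd1 (2.25). Line 175 was below and line 261 above wild-type thymus for Asns (-8.51), Cd81 (-7.69), Maged1 (-6.60), Afdn (-6.53), Pkp4 (-6.52) and Ctnna1 (-6.23). So it was for Mgmt (-5.87), Prnp (-5.77), Ccnd1 (-5.55), Rbms1 (-5.54) and Ly6k (-5.30). Card10 (-4.99), Rap1gap2 (-4.90), Rsad2 (-3.96), H2-Oa (-2.32) and Bbc3 (-2.06) were placed likewise. Against the labelled transgenic arrays the pattern did not hold for Tmem108, Slc7a3, Bik, Scd1, Pkp4, Ctnna1, Rsad2 and Ly6k. Ctnna1, for example, read 10.97 in line 261 and 10.77 to 11.65 on those arrays.

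Some of these placements are narrow. Slc7a3 read 5.04 in line 261 (undetected), just under the wild-type range of 5.15 to 5.40. Fzd10 was undetected both in line 261 (4.46) and on the wild-type arrays (4.68 to 4.96). Bik was undetected in line 261 (4.71), with the wild-type arrays at 5.15 to 5.70. Scd1 read 10.03 in line 175 and 7.78 in line 261, around a wild-type range of 8.92 to 9.28.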

How the results depend on the processing

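No paired analysis was possible because each line is 1 array and no test was run. The number of probes and genes over 2 units apart depended most on the handling of background. With neqc in limma at an offset of 16 it was 237 probes higher and 331 lower in line 175. At an offset of 50 there were 122 and 161 probes, 87 and 111 genes, and 7 and 11 list genes. Quantile normalization without background correction gave 61 and 70 probes, 48 and 47 genes, and 4 and 5 list genes, and median scaling 65 and 119 probes, 52 and 81 genes, and 5 and 9 list genes. Requiring detection in both lines left 76 and 102 probes and 56 and 77 genes. Undetected values set at the lowest detected value left 183 probes higher and 260 lower, and 130 and 177 genes. A threshold of 1 unit gave 1105 and 1462 probes, and of 3 units 115 and 152. The counts of genes where line 175 alone was above, line 261 alone below, line 175 alone below and line 261 alone above wild-type thymus were 35, 29, 43 and 36 at offset 50. They were 22, 13, 23 and 9 under quantile normalization, 26, 12, 24 and 27 under median scaling, and 70 to 74, 61 to 65, 91 to 95 and 67 to 70 with 1 wild-type array left out. No named difference changed sign among the 59 members under these normalizations or the mean of a gene's probes. Over 2 units remained 53 of them at offset 16, 44 at offset 50, 35 under quantile normalization, 39 under median scaling and 55 by the mean. A stricter detection limit of 0.01, or none, moved each count by less than 1.5 times. The arrays give no spread for either line, and values at background have no order.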

Other observations

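Fzd10 and Nkd1 belong to the Wnt pathway, in which secreted WNT proteins bind Frizzled receptors, and a list of its genes was drawn up after these values had been seen. Of 33 genes detected in at least 1 line, 6 were higher and 1 lower in line 175, with a median of 0.30, against 2.07% and 2.68% of all genes and a median of 0.02. Wls, which escorts WNT proteins to the surface, read 8.01 in line 175 and was undetected in line 261 (4.97), with 8.41 ± 0.16 in wild-type thymus (SD, n = 3). Apcdd1, an inhibitor of Wnt signalling, read 7.75 in line 175 and was undetected in line 261 (4.45). The ligand gene Wnt5b read 8.43 in line 175 and 6.41 in line 261, and the cadherin gene Celsr2 read 7.35 in line 175 and was undetected in line 261 (4.67). The receptor gene Tnfrsf19 was the 1 member lower in line 175, undetected there (4.53) and 6.56 in line 261. The remaining list genes were within 2 units, with Ctnnb1 at 0.04, Lef1 at 0.98 and Axin2 at -0.95.

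A list of cell junction genes, also drawn up after seeing Afdn, Pkp4 and Ctnna1, had 1 gene higher and 7 lower in line 175 of 20 detected, with a median of -0.08, beside 2.07% higher and 2.68% lower over all genes. Beside those 3, the gap junction gene Gja1 was undetected in line 175 (4.44) and read 8.74 in line 261, with 8.48 ± 0.26 in wild-type thymus (SD, n = 3). Cxadr, an adhesion protein and virus receptor, read 6.12 in line 175 and 9.07 in line 261. The polarity genes Prkcz and Llgl2 differed by -3.17 and -2.09, and Marveld1 by 2.86. Both lists hold genes that prompted them, so their counts are not independent evidence.

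Some differing genes are neighbours in RefSeq's gene order once genes not tested are left out, so other genes may lie between them. Among 9297 pairs of adjacent tested genes, 49 pairs consisted of member genes, and 39 of these had the same direction and 10 opposite ones. Members were 4.75% of all tested genes, and the number of pairs to be met at that share was not computed. Tspan32 (-4.10) lies beside Cd81 (-7.69), Nsmaf (-4.21) beside Tox (-4.55), Rnf144a (-4.59) beside Rsad2 (-3.96), and Clec2d (-3.30) beside Cd69 (-3.06). On the higher side Capsl (2.04) lies beside Il7r (4.64), and Il2ra (2.22) beside Il15ra (2.52). The X-linked genes Bex2 (4.10), Tceal9 (3.51) and Bex3 (6.87) are consecutive tested genes. Tbc1d2, Anks6, Galnt12 and Col15a1 form a run of 4 tested genes at -2.77, -2.71, -2.90 and -3.28. Acot1, Acot3 and Acot5 (3.49, 2.32 and 3.13) are similar in sequence, as are Bex2 and Bex3, so their probes may read each other's messages. Crhbp (8.40) and the next tested gene, Iqgap2 (-4.61), differed in opposite directions.

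Xist, the RNA that coats the silenced X, was detected near background in line 175 (5.75, where the lowest detected value was 5.58). It was not detected in line 261 (4.41) or in wild-type thymus (4.50 ± 0.05, SD, n = 3), and its difference of 1.35 was within 2 units. Of the Y-linked genes, Eif2s3y and Kdm5d were not detected in either line, while Uty was detected near background in both, at 5.76 in line 175 and 5.99 in line 261.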
